A study of Mus musculus with 4 samples.

Results

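The 10 genes described here encode surface molecules of T cells, most of them receptors that set the threshold of the cell. They are Cd28, Icos, Ctla4, Pdcd1, Lag3, Tigit, Cd200, Btla, Cd5 and Cd83, chosen by name out of 32285 genes in the count matrices. They were followed in splenic T cells of C57BL6/J mice that had been sorted for CD3 and CD4, cultured for 6 h with beads carrying antibodies to CD3 and CD28, and profiled by droplet 3′ single-cell RNA sequencing. There were 4 libraries: female and male mice labelled Irf5-/-, which lack the transcription factor IRF5 by label, and female and male mice labelled WT. All 4 received the same beads, no library was left unstimulated, and the number of mice behind a library is not given in the sources used here, so p-values measure the spread between these libraries. The study set out to compare the genotypes. Values for single libraries are given throughout in the order female labelled knockout, female labelled wild type, male labelled knockout, male labelled wild type.

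T cells need a signal through the antigen receptor and a second through CD28, which binds CD80 and CD86 on the presenting cell. CTLA-4 binds the same ligands more tightly and acts as a brake, and it is carried constitutively by regulatory T cells, which are defined by the transcription factor FOXP3. ICOS, PD-1 (gene Pdcd1) and BTLA are relatives of CD28: ICOS costimulates through phosphoinositide 3-kinase, and PD-1 and BTLA recruit phosphatases such as SHP-1 (gene Ptpn6). LAG-3, TIGIT and CD5 restrain T cells through other ligands, CD200 inhibits myeloid cells that carry its receptor, and CD83 is an activation marker best known from dendritic and B cells.

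The library labels went against the count of the targeted gene. Irf5 had 279, 13, 414 and 41 unique molecular identifiers (UMIs, 1 per captured RNA molecule) in the CD4 T cells of the 4 libraries, or 8.47, 0.854, 8.93 and 0.917 counts per 1000000 UMIs (plain CPM), so that it was higher in the libraries labelled knockout. Which part of the gene the allele lacks is not given in the sources used here, so the 3′ count to expect from it is not known. The lower count was that of the library labelled wild type in both sexes, and whether labels were exchanged was not tested. Genotypes are therefore called labels below, and every direction between them is that of the labels.

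Cells with at least 2000 UMIs, at least 500 genes and at most 10% mitochondrial UMIs numbered 6178, 1814, 6543 and 4565, or 19100 in all, with medians of 5105, 8416, 6741 and 9661 UMIs. The female library labelled wild type stood apart, with the fewest cells and 55.6% of its UMIs in cells, against 83.2% to 89.2% in the others. Any pair of libraries shared 2 to 14 cell barcodes. Cells with at least 3 UMIs of markers of B, NK, CD8, myeloid, erythroid or gamma-delta T cells (464 cells) were set aside, which left 18636 CD4 T cells. Their summed CD3, T cell receptor and Cd4 markers stood at 2579 to 2925 plain CPM, and the B cell markers at 0.425 to 0.608 plain CPM, in the 4 libraries.

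The CD4 T cells were divided into 5 classes by genes that are not among the 10. Foxp3 cells (201, 21, 215 and 89) had a Foxp3 UMI after every cell was thinned to 2000 UMIs, and Nrn1 cells (92, 37, 101 and 89) had a thinned UMI of Nrn1, which encodes neuritin, and no Foxp3. S100a6 cells (38, 15, 38 and 25), named for a gene of memory T cells, had an S100a6 UMI and none of Foxp3 or Nrn1. The remaining cells were resting (1961, 533, 2014 and 1406) or activated (3586, 1071, 3818 and 2637) by a score of 14 activation genes such as Nr4a1, Egr2 and Myc against 12 resting genes such as Klf2. The score is a range and not a pair of types: 1752 of 17124 scored cells lay within 0.5 of the cut on its log2 scale. Activated cells carried 1.35 to 1.44 times as many UMIs as resting cells in the 4 libraries, and 649 cells stayed in no class.

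Markers that were not used for gating gave a mixed check of the classes. Ikzf2, a transcription factor of regulatory T cells, stood at 1510 plain CPM in Foxp3 cells and at most at 353 in the other classes. The memory T cell gene S100a4 stood at 151 plain CPM in S100a6 cells and at most at 14.7 elsewhere. Of the 3 ungated markers listed for Nrn1 cells, Penk (111 plain CPM there, at most 44.5 elsewhere) and Gpm6b (60.9, at most 56.3 elsewhere) were highest in them, and Izumo1r (46.9) was higher in Foxp3 cells (343) and S100a6 cells (66.9). Of the summed markers of 6 other lineages, those of CD8 T cells ran from 4.80 to 11.4 plain CPM over the classes, and the other 5 were highest in S100a6 cells. They stood there at 14.1 plain CPM for gamma-delta T cells, 15.3 for erythroid, 59.9 for myeloid, 4.69 for NK and 2.35 for B cells, beside 1.59, 2.43, 26.7, 0.436 and 0.229 in activated cells. The myeloid sum of S100a6 cells was all from Cst3, which stood at 58.9 plain CPM in Foxp3 cells. Their erythroid sum was all from Car2, and no UMI of the other myeloid or erythroid markers was seen in them. Foxp3 cells were 3.33%, 1.20%, 3.35% and 2.01% of the CD4 T cells.

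Levels of the 10 genes in the classes are CPM after scaling for composition, and a difference between classes is a log2 ratio of these levels ± its standard error. Values called plain CPM are UMIs over all UMIs of the same cells or droplets, with no such scaling. Because 1 end of each molecule is counted, levels are not divided by gene length. Members of the set lie close together in places: on GRCm38, Cd28 (chr1:60716800-60773359), Ctla4 (chr1:60887000-60915832) and Icos (chr1:60977927-61000320) follow each other on the plus strand of chromosome 1 with gaps of 114 kb and 62.1 kb, and Btla (chr16:45224315-45257670, plus strand) lies 124 kb from Cd200 (chr16:45382135-45409053, minus strand). Pdcd1 (chr1:94038305-94052553), Lag3 (chr6:124904361-124911705), Tigit (chr16:43648867-43664146) and Cd5 (chr19:10717116-10739002) are on minus strands and Cd83 (chr13:43784775-43803132) is on a plus strand. The annotated Ctla4 overlaps the pseudogene Rpl18-ps1, and Icos overlaps the unconfirmed transcript Gm37039, both on the same strand, so UMIs of those spans could be split.

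**Figure D1:**
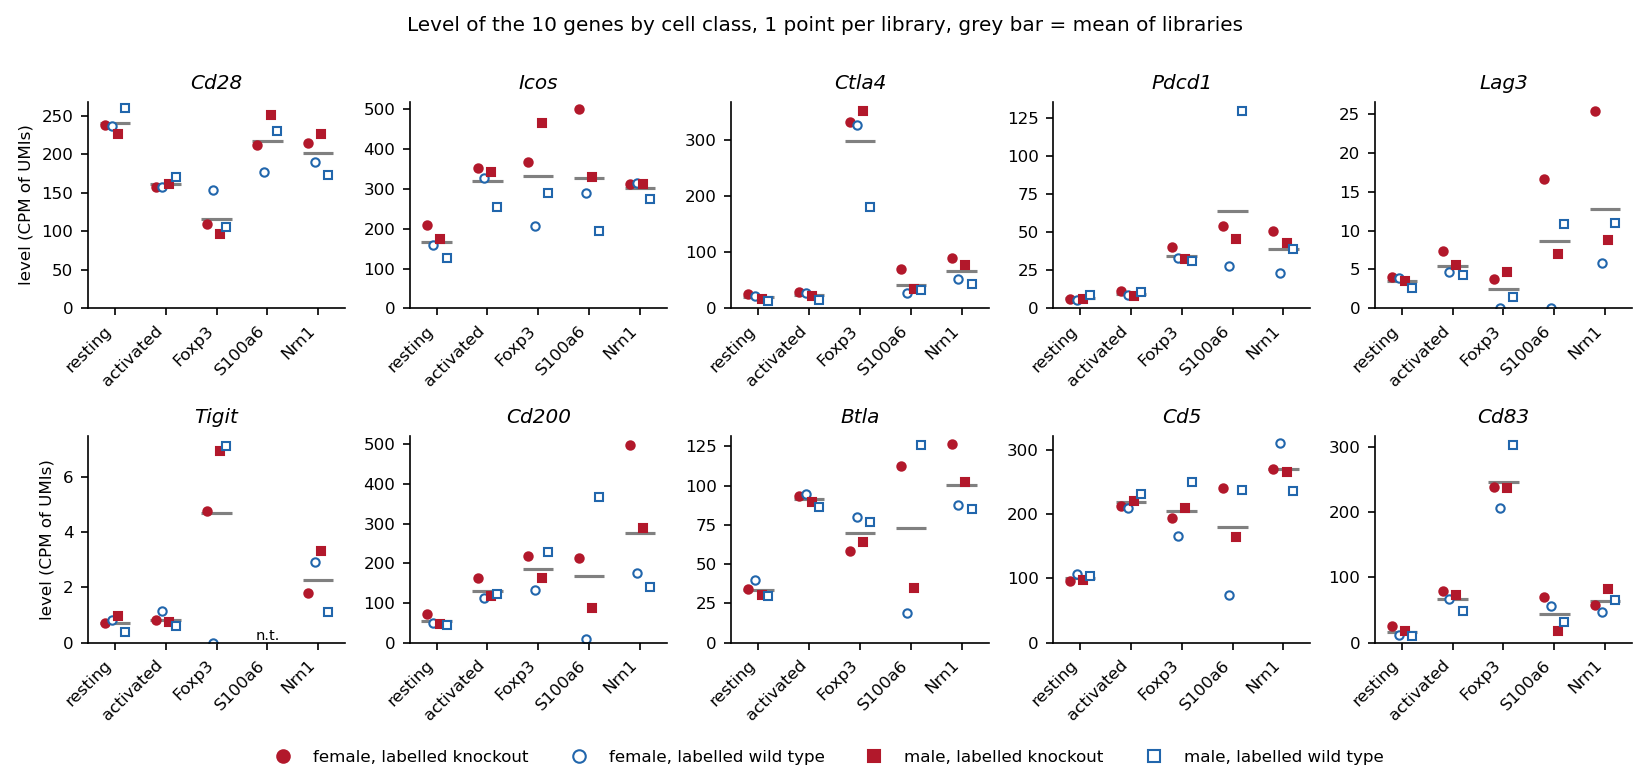
Level of each gene in CPM (vertical axis, linear, from 0) in resting, activated, Foxp3, S100a6 and Nrn1 cells (horizontal axis). Each point is 1 library, filled for labelled knockout and open for labelled wild type, circles for female and squares for male, and grey bars are means over the 4 libraries; n.t. marks Tigit in S100a6 cells, which was too sparse to test. Ctla4 stood at 181 to 352 CPM in Foxp3 cells and at 13.1 to 28.9 CPM in resting and activated cells, and Cd28 was highest in resting cells among these 3 classes.

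Activated and resting cells differed in 9 of the 10 genes. Against resting cells, 8 genes rose in activated cells, Cd83, Btla, Cd200 and Cd5 by the largest amounts, and Cd28 fell. This is a contrast in which 79.1% of 9574 genes tested were called (35.6% higher, 43.5% lower), so a call here says little about the set: its median log2 difference was 0.81, beside -0.08 over all genes tested. Tigit was not called.

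Cd28, the receptor that the beads engage, was the exception in direction. Its level was 238, 237, 226 and 260 CPM in resting cells and 158, 157, 161 and 170 CPM in activated cells. The classes did not overlap in any library, and the log2 difference was -0.57 ± 0.06 (adjusted p = 2.97e-09, edgeR). Counted per cell, the gap was smaller, since activated cells held more RNA: 1.31 ± 0.34 Cd28 UMIs per activated cell and 1.43 ± 0.36 per resting cell (SD, n = 4 libraries). The ratio of activated to resting was 0.882, 0.886, 0.985 and 0.932 in the 4 libraries, below 1 in each. Cd28 was thus lower in activated cells on both scales, and the values per cell were not tested.

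The class average hides the shape of the Cd28 profile. In 7 bins of the activation score, from the most resting to the most activated, mean Cd28 levels were 155, 203, 294, 233, 177, 106 and 51.3 plain CPM. The peak was in the third bin, just below the cut, in each of the 4 libraries. Per cell, Cd28 went from 0.752 UMIs in the lowest bin to 2.66 in the third and 0.378 in the seventh, where every library held at least 233 cells. Cd28 thus rose and then fell along the score on both scales.

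Icos, the other costimulatory receptor, went the opposite way. It stood at 208, 160, 174 and 126 CPM in resting cells and at 350, 327, 342 and 255 CPM in activated cells, a log2 difference of 0.94 ± 0.08 (adjusted p = 1.99e-11, edgeR). Again the classes did not overlap. Along the score Icos climbed from 106 plain CPM in the lowest bin to 322 in the sixth and then levelled off at 316. The 2 costimulatory genes therefore crossed: Cd28 exceeded Icos in the resting sums of every library, and Icos exceeded Cd28 in the activated sums of every library.

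**Figure D2:**
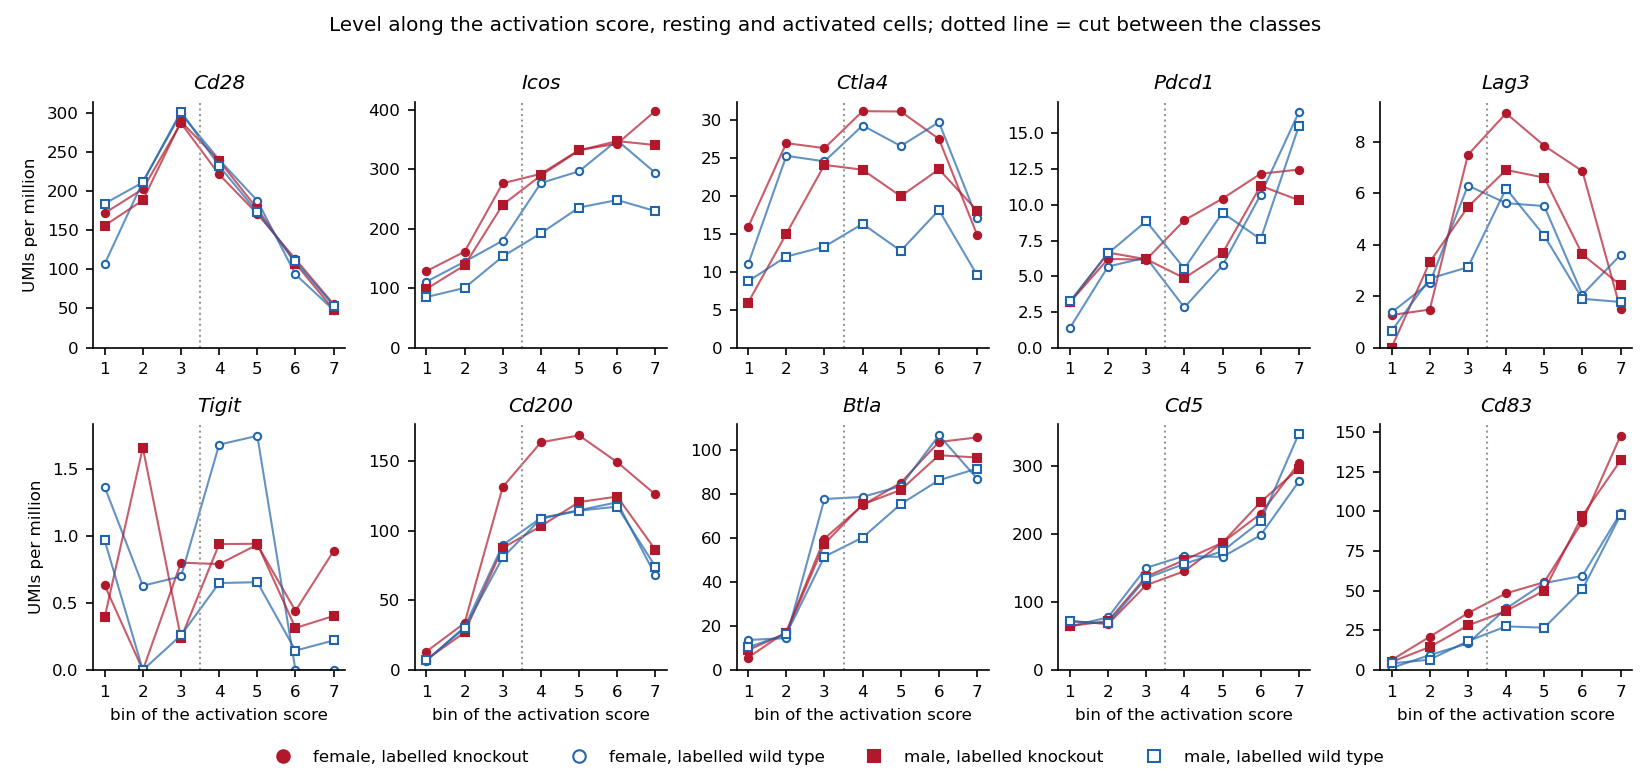
Level of each gene in plain CPM (vertical axis, linear, from 0) in 7 bins of the activation score (horizontal axis, most resting at 1 and most activated at 7), for resting and activated cells only. Each line is 1 library, drawn as in the plot of levels by class, and the dotted line is the cut between the classes; Cd28 peaked in bin 3 in all 4 libraries, while Cd5 and Cd83 were highest in bin 7 in all 4.

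Btla, Cd200 and Cd5 rose with activation side by side. Btla, the receptor for the ligand HVEM, went from 34.0, 39.8, 30.7 and 30.0 CPM in resting cells to 93.7, 94.9, 89.7 and 86.6 CPM in activated cells, a log2 difference of 1.47 ± 0.07 (adjusted p = 2.06e-16, edgeR). The 4 activated levels lay close together and above every resting level. Cd5, which damps signals of the antigen receptor, went from 96.4, 107, 98.3 and 104 CPM to 213, 209, 221 and 231 CPM (log2 1.12 ± 0.06, adjusted p = 6.12e-15, edgeR). Cd200 went from 72.9, 50.3, 46.6 and 45.3 CPM to 163, 113, 117 and 123 CPM (log2 1.29 ± 0.12, adjusted p = 1.99e-10, edgeR), with the female library labelled knockout highest in both classes. When the middle of the score was left out, the differences grew to 2.76 for Btla, 1.78 for Cd5 and 2.45 for Cd200.

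Their profiles along the score were not the same. Cd5 kept rising to 307 plain CPM in the seventh bin, while mean Cd200 was 129 in the fifth and 88.6 in the seventh (it peaked in the sixth bin in 3 libraries, and in the fifth in the female library labelled knockout), and Btla stood at 98.6 and 95.2 in the last pair of bins. Over 20 sums of 1 library and 1 class, centred within library, the Pearson correlation of log2(CPM + 1) was 0.92 for Btla with Cd5, 0.91 for Btla with Cd200 and 0.90 for Cd200 with Cd5. Among 7144 genes of at least 10 CPM, Cd5 and Cd200 were the nearest genes to Btla, ahead of Metap2, and Btla and Cd5 were the second and the third nearest to Cd200 after Tle3. These points share libraries, and 5 classes carry most of their spread, so the values are descriptions. In single activated cells thinned to 2000 UMIs, Cd200 and Btla were found together 1.31 to 1.56 times as often as the product of their shares, with 147, 41, 111 and 86 cells holding both.

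Because these 3 genes moved together, the 250 bases before their RefSeq transcription starts are shown (GRCm38.p6, from RefSeq, 5′ to 3′ on the gene's strand), followed by those of Ctla4, the most raised of the 10 genes in Foxp3 cells. Capitals mark matches, on either strand, to 5 short motifs of factors induced or used in T cells: NF-kB (GGG and CC with 5 bases between), AP-1 TGANTCA, NFAT TTTCC, EGR GCGNGGGCG and RUNX TGNGGT. Cd200 is chr16:45409054-45409303 (minus strand), Btla chr16:45224087-45224336 (plus strand), Cd5 chr19:10738975-10739224 (minus strand) and Ctla4 chr1:60908775-60909024 (plus strand).
Cd200: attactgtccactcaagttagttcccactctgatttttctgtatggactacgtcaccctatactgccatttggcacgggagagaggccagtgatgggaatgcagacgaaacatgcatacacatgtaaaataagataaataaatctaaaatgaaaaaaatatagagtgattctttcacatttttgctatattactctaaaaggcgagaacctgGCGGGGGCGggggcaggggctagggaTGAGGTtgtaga
Btla: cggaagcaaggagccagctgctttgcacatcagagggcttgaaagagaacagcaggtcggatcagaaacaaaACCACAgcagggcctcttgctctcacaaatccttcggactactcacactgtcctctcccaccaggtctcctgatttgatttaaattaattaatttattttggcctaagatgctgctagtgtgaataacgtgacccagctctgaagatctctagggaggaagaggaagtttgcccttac
Cd5: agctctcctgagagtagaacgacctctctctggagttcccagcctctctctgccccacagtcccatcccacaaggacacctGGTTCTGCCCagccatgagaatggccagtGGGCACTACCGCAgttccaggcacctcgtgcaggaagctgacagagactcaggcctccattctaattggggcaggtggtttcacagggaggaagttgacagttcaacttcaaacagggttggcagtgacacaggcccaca
Ctla4: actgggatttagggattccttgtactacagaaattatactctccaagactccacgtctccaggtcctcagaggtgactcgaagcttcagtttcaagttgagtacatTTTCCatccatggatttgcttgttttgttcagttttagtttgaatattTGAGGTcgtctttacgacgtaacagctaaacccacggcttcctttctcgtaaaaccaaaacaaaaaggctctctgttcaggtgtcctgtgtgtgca
Cd200 held an EGR match at -38 and a RUNX match at -12 from the start, Btla a RUNX match at -178, Cd5 NF-kB matches at -169 and -140 and a RUNX match at -133 that overlaps the second NF-kB match, and Ctla4 an NFAT match at -144 and a RUNX match at -96. RUNX was thus in all 4 windows shown. It was also in that of Tigit (-140) but not in that of Pdcd1, and both of these held 2 NFAT matches. The letters are common: among 32851 RefSeq windows of this length, 40.1% held the RUNX letters, 45.8% NF-kB, 55.6% NFAT, 6.75% AP-1 and 4.70% EGR. A match is a string of letters and not a bound site. RefSeq windows were matched for 6 of the 10 genes: these 4, Pdcd1 and Tigit.

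Cd83 had the largest rise of the set. It went from 25.1, 11.1, 17.9 and 10.9 CPM in resting cells to 79.2, 66.2, 73.4 and 48.2 CPM in activated cells (log2 1.99 ± 0.14, adjusted p = 3.18e-13, edgeR). All activated sums exceeded all resting sums, and without the middle of the score the difference was 2.96. Along the score it climbed in every step of the mean, from 4.26 plain CPM in the first bin to 119 in the seventh. Cd83 and Cd28 were the most opposed pair of the set over the 20 sums (Pearson r = -0.88), and in thinned activated cells they were found together 0.510 to 0.720 times as often as the product of their shares. The genes nearest to Cd83 were Wnk1, Nfkbiz and Il2ra, of which Il2ra, the alpha chain of the interleukin 2 receptor, is in the activation score itself.

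The remaining inhibitory receptors were rarer. Pdcd1 stood at 6.17, 5.53, 6.01 and 9.11 CPM in resting cells and 11.4, 9.04, 8.17 and 10.6 CPM in activated cells (log2 0.51 ± 0.13, adjusted p = 0.000735, edgeR), and the ranges overlapped between libraries although every library rose. Lag3, which binds MHC class II, went from 4.08, 3.87, 3.53 and 2.58 CPM to 7.34, 4.62, 5.57 and 4.26 CPM (log2 0.68 ± 0.17, adjusted p = 0.000952, edgeR). Its level peaked near the cut, at 6.96 plain CPM in the fourth bin, and fell to 2.32 in the seventh. Tigit had 24 UMIs in the resting sums and 66 in the activated sums, and its log2 difference of 0.11 ± 0.39 was not called (adjusted p = 0.792, edgeR).

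Ctla4 changed little between resting and activated cells. Levels were 25.6, 22.9, 17.0 and 13.1 CPM in resting cells and 28.9, 27.9, 21.9 and 15.9 CPM in activated cells, a log2 difference of 0.28 ± 0.10 (adjusted p = 0.01, edgeR) that was lost when cells were thinned to equal depth (0.27, adjusted p = 0.0768, edgeR); Pdcd1 was lost there too (0.45, adjusted p = 0.0508, edgeR). Droplets with fewer than 200 UMIs, which hold free RNA, carried Ctla4 at 85.6, 49.6, 61.0 and 33.2 plain CPM, above its level in both classes. Pdcd1 (20.9, 9.59, 14.7 and 14.2) and Tigit (1.53 to 2.12) were also above both classes in every library. Lag3 (4.39 to 7.09), Cd200 (103 to 151), Btla (57.0 to 65.3) and Cd83 (63.6 to 130) were above resting cells in every library. Against the scaled levels, Icos and Cd5 were above resting cells in some libraries only, and Cd28 was below both classes. In thinned cells a Ctla4 UMI was seen in 3.02% of resting and 4.08% of activated cells on average, beside 5.32% of 94 set-aside cells with erythroid markers (median 12257 UMIs before thinning), a type that should lack the gene. The resting and activated shares were below it, so no expression is read from them. The part of free RNA in these shares, and whether erythroid-marked droplets also held a T cell, was not tested.

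The same measure places the other genes. In the 94 erythroid-marked cells a UMI was seen for Cd28 in 12.8%, Icos in 16.0%, Cd200 in 10.6%, Btla in 8.51%, Cd5 in 12.8% and Cd83 in 6.38%. The upper ends of the exact 95% intervals were 21.2%, 25.0%, 18.7%, 16.1%, 21.2% and 13.4%. In resting cells only Cd28 (28.2%) was above its upper end, and Icos (21.9%), Cd5 (13.8%), Cd200 (5.73%), Btla (4.01%) and Cd83 (2.45%) were not. In activated cells Cd28 (22.5%), Icos (38.7%) and Cd5 (30.4%) were above it, and Cd200 (16.3%), Btla (15.1%) and Cd83 (9.27%) could not be told from the erythroid-marked cells at this depth. At full depth the activated shares were 50.1% for Cd28, 72.5% for Icos, 35.9% for Cd200, 44.1% for Btla, 63.6% for Cd5 and 20.3% for Cd83. Pdcd1, Lag3 and Tigit were seen in 0 of the 94 erythroid-marked cells, which allows a share of up to 3.19% by counting error alone, and no activated share of these 3 genes exceeded that limit (1.69%, 0.951% and 0.137%).

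**Figure D3:**
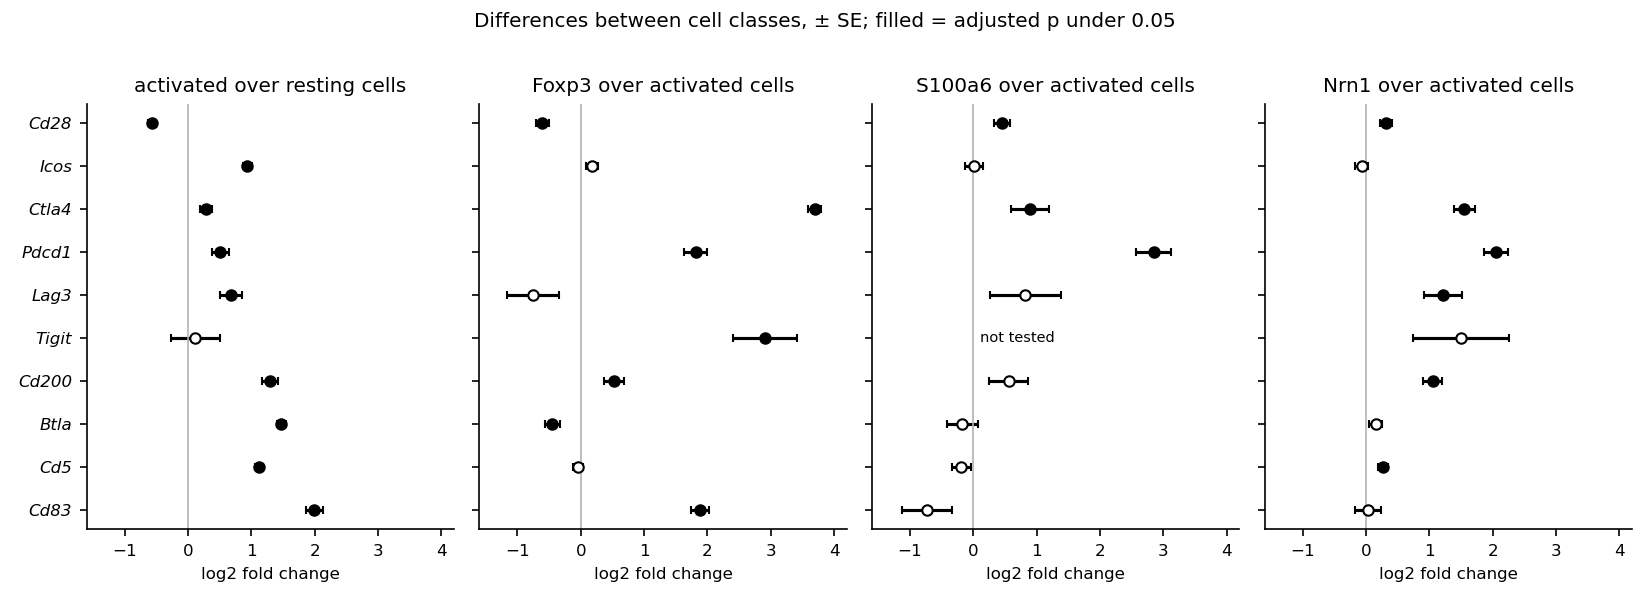
Log2 difference in CPM (horizontal axis) for each gene (vertical axis) between activated and resting cells, and between Foxp3, S100a6 or Nrn1 cells and activated cells. Points are fitted values over 4 libraries, bars are standard errors, filled points passed an adjusted p under 0.05; Ctla4 in Foxp3 cells lay farthest from 0, at 3.69, and Pdcd1 was higher in all 3 small classes than in activated cells.

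Several of the genes stood at other levels in Foxp3 cells than in activated cells of the same libraries. Of the 10 genes 7 were called, 5 higher (Ctla4, Tigit, Cd83, Pdcd1 and Cd200) and 2 lower (Cd28 and Btla), in a contrast where 57.0% of genes tested were called (31.2% higher, 25.7% lower). The call of Tigit has a limit that is given with its values below. The median of the set was 0.35, beside 0.07 over all genes tested. The fold changes below are relative to activated cells of the same libraries.

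Ctla4 stood at 333, 327, 352 and 181 CPM in Foxp3 cells, 3.69 ± 0.10 on the log2 scale above activated cells (adjusted p = 7.46e-21, edgeR). The male library labelled wild type was well below the other 3, and all 4 were far above any activated sum. In thinned Foxp3 cells 34.8% held a Ctla4 UMI. The genes nearest to Ctla4 over the 20 sums were Hopx, Izumo1r and H2afz (r = 0.96, 0.96 and 0.95), of which Izumo1r, the folate receptor 4 of regulatory T cells, is in the list of Nrn1 markers. Tigit, which competes for the ligand of CD226, was raised by 2.91 ± 0.51 (adjusted p = 2.13e-05, edgeR), but on 5, 0, 9 and 5 UMIs. It stood at most at 0.972 CPM in resting, 1.16 in activated and 3.31 in Nrn1 sums. Tigit passed the low-count filter only through the Foxp3 sums, where it was high, so its call is a description.

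Pdcd1 stood at 40.2, 33.4, 32.3 and 31.4 CPM in Foxp3 cells (log2 1.81 ± 0.19 over activated, adjusted p = 4.63e-09, edgeR), on 42, 5, 42 and 22 UMIs. In the female library labelled knockout 17 of the 42 came from 1 cell, and in the female library labelled wild type 3 of the 5. Cd83 stood at 238, 207, 237 and 302 CPM (log2 1.89 ± 0.14, adjusted p = 1.48e-11, edgeR), so that Cd83 was as far above activated cells as activated cells were above resting cells. Cd200 was higher by 0.53 ± 0.16 (adjusted p = 0.00543, edgeR), a call that was lost with stricter gates (0.28, adjusted p = 0.22, edgeR). These gates asked for at least 2 Foxp3 UMIs and left out the Foxp3 cells of the female library labelled wild type. They also cut the activated cells to 2644, 844, 2917 and 1999, without the middle of the score. Cd28 was lower in Foxp3 than in activated cells, at 110, 153, 96.2 and 106 CPM (log2 -0.60 ± 0.10, adjusted p = 1.21e-05, edgeR), and the female library labelled wild type, with 21 cells, was nearest to the activated level. Btla was lower by 0.45 on the log2 scale, at 58.4, 80.0, 63.8 and 77.0 CPM (-0.45 ± 0.12, adjusted p = 0.00169, edgeR). Icos (0.17 ± 0.09), Cd5 (-0.05 ± 0.08) and Lag3 (-0.75 ± 0.42, on 11 UMIs) were not called.

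Of the Foxp3 cells, 53.9% to 65.7% per library lay above the activation cut, and the genes divided by that position. The cut need not mean the same in this class, since 3 genes of the score were higher in Foxp3 than in activated cells (Il2ra at 1299 and 382 plain CPM, Tnfrsf9 at 904 and 112, Batf at 199 and 41.1) and the other 11 were lower. Pooled over libraries, Cd83 was at 53.2 plain CPM in Foxp3 cells below the cut and 366 above it, Btla at 19.7 and 93.8, Cd200 at 84.5 and 266, and Cd5 at 135 and 271. Each of these was higher above the cut in all 4 libraries. Ctla4 was already at 235 plain CPM below the cut, beside 378 above it, but the male library labelled wild type went the other way, with 291 below the cut and 142 above it. When only Foxp3 cells above the cut were set against activated cells, which left the female library labelled wild type out for having 13 such cells, the lower Btla was lost (-0.08, adjusted p = 0.694, edgeR) and a higher Icos was called (0.38, adjusted p = 0.00803, edgeR).

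Nrn1 cells, of which 76.1% to 86.5% lay above the cut, were set against activated cells in the same way. In this contrast 10.6% of genes tested were called (6.83% higher, 3.80% lower), and 6 of the 10 members were called, all higher. Pdcd1 stood at 50.6, 23.4, 43.0 and 39.3 CPM (log2 2.06 ± 0.19, adjusted p = 1.98e-08, edgeR) and Ctla4 at 90.3, 52.7, 77.3 and 43.7 CPM (log2 1.55 ± 0.16, adjusted p = 1.37e-07, edgeR). Every library was above its activated level for both, although 17 of the 36 Pdcd1 UMIs in the male library labelled wild type came from 1 cell. Cd200 stood at 497, 176, 289 and 140 CPM (log2 1.05 ± 0.15, adjusted p = 1.60e-05, edgeR), higher in both libraries labelled knockout than in either labelled wild type.

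Lag3 was higher in Nrn1 cells by 1.22 ± 0.30 (adjusted p = 0.00801, edgeR), at 25.3, 5.85, 8.83 and 10.9 CPM on 34 UMIs, and without the female library labelled knockout the call was lost (0.91, adjusted p = 0.19, edgeR). Cd28 (0.32 ± 0.09, adjusted p = 0.0214, edgeR) and Cd5 (0.27 ± 0.08, adjusted p = 0.0291, edgeR) were small rises that did not hold. Each lost its call without any 1 of the female labelled knockout, female labelled wild type and male labelled knockout libraries, at 0.26, 0.19 and 0.23 for Cd28 and 0.24, 0.08 and 0.28 for Cd5. Without a filter on low counts they were 0.05 and 0.01. Tigit (6 UMIs in all), Btla (0.15 ± 0.11), Icos (-0.07 ± 0.10) and Cd83 (0.03 ± 0.21) were not called. The median of the set was 0.68, beside 0.00 over all genes tested.

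Among the members tested in S100a6 cells, Pdcd1 rose by the largest amount. These cells were few, 116 in all, and 26.3% to 44.0% of them per library lay above the activation cut, so the class was set against both main classes. The gate was widened after the data were seen, because the first gate, of at least 2 thinned S100a6 UMIs, left 7, 2, 6 and 3 cells. Pdcd1 stood at 54.1, 27.9, 45.3 and 130 CPM, on 13, 3, 13 and 36 UMIs. That was 2.84 ± 0.28 above activated cells (adjusted p = 3.80e-09, edgeR) and 3.46 ± 0.31 above resting cells (adjusted p = 1.11e-09, edgeR). Without the male library labelled wild type, the highest, the difference from activated cells was 2.26 (adjusted p = 5.95e-06, edgeR). Cells set aside for gamma-delta T cell markers held Pdcd1 at 32.2 plain CPM, and the part of the other lineages' markers of S100a6 cells, given above, was not tested. The genes nearest to Pdcd1 over the 20 sums were Hnrnpll, Alcam and Cd44 (r = 0.93, 0.92 and 0.92), Cd44 being the usual surface marker of memory T cells.

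Against activated cells, 41.1% of 8257 genes tested were called, and 3 of the 9 members tested: Pdcd1, Ctla4 (0.89 ± 0.30, adjusted p = 0.0169, edgeR) and Cd28 (0.45 ± 0.13, adjusted p = 0.00547, edgeR). Ctla4 stood at 70.7, 27.9, 34.9 and 32.4 CPM on 39 UMIs and was lost without the female library labelled knockout (0.66, adjusted p = 0.187, edgeR), without the male library labelled wild type (0.88, adjusted p = 0.0578, edgeR), in thinned cells (0.10), with cells of other lineages kept (0.23) and above the cut (0.59). Cd28 was lost without the male library labelled knockout (0.39, adjusted p = 0.0598, edgeR), with cells of other lineages kept (0.08), without a filter on low counts (0.30), without predicted doublets (0.32) and when only cells above the cut were kept, without the female library labelled wild type (0.08). Against resting cells, 12.9% were called (7.10% higher) and 6 members: Pdcd1, Cd200 (1.79 ± 0.35), Btla (1.25 ± 0.28), Ctla4 (1.15 ± 0.31), Icos (0.92 ± 0.15) and Cd5 (0.90 ± 0.16), all higher. The median of the set over the 9 tested was 1.21 there, beside -0.04 over all genes, and 0.45 beside 0.01 against activated cells. Resting cells lie below the activation cut by definition, and the S100a6 cells divided by that position. Pooled over libraries, Cd200 was at 36.6 plain CPM in the 73 S100a6 cells below the cut and at 393 in the 43 above it, beside a mean of 51.6 in resting cells. Btla was at 25.1 below the cut and 152 above it, beside 32.2 in resting cells, so neither was higher than in resting cells below the cut. Icos (222 and 487, beside 159), Cd5 (197 and 224, beside 95.8), Ctla4 (52.6 and 38.6, beside 18.6) and Pdcd1 (93.7 and 57.9, beside 5.72) were above the resting mean on both sides. These pooled values were not tested.

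Single cells weighed heavily in this class. The Cd200 levels were 212, 9.30, 87.2 and 367 CPM, and 42.2% of the 102 Cd200 UMIs in the male library labelled wild type came from 1 cell. Without that library Cd200 was 1.01 above resting cells (adjusted p = 0.0166, edgeR) and Btla lost its call (0.80, adjusted p = 0.136, edgeR). Ctla4 over resting cells also lost its call without the female library labelled knockout (0.98, adjusted p = 0.139, edgeR) or the male library labelled wild type (1.11, adjusted p = 0.0518, edgeR), in thinned cells (0.34, adjusted p = 0.855, edgeR), with cells of other lineages kept (0.53, adjusted p = 0.196, edgeR) and above the cut (0.80, adjusted p = 0.441, edgeR). Cd5 over resting cells lost its call with cells of other lineages kept (0.40, adjusted p = 0.053, edgeR). Tigit had 2, 1, 1 and 2 UMIs in S100a6 cells and was not tested. Lag3 had 9 UMIs.

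The order of the classes differed from gene to gene. Mean Pdcd1 was 64.2 ± 44.9 CPM in S100a6 cells, 39.1 ± 11.5 in Nrn1 cells, 34.3 ± 4.0 in Foxp3 cells, 9.80 ± 1.46 in activated cells and 6.71 ± 1.63 in resting cells (SD, n = 4 libraries), and the first 3 did not differ beyond their spread. The highest S100a6 level was that of the male library labelled wild type (130), and in the female library labelled wild type S100a6 cells (27.9) were below Foxp3 cells (33.4). Mean Ctla4 was 298 ± 78.7 CPM in Foxp3 cells, 66.0 ± 21.5 in Nrn1 cells, 41.5 ± 19.7 in S100a6 cells, 23.7 ± 6.04 in activated cells and 19.7 ± 5.68 in resting cells, with Foxp3 cells apart from the rest. Mean Cd28 ran from 240 ± 14.3 CPM in resting cells through 218 ± 31.6 in S100a6, 201 ± 24.2 in Nrn1 and 162 ± 5.74 in activated cells to 116 ± 25.4 in Foxp3 cells. Foxp3 cells thus held the most Ctla4 and the least Cd28 of the 5 classes.

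Other genes of the same pathways, 48 ligands, receptors and intracellular partners, were counted in the same contrasts. Of 36 tested between activated and resting cells, 10 were higher and 17 lower in activated cells, near the 35.6% and 43.5% over all genes. The 25 intracellular partners tested divided into 6 higher and 15 lower, with a median of -0.49 beside -0.08 over all genes. Pdcd1lg2, a ligand of PD-1, rose from 12.7 to 57.2 CPM (log2 2.14), Vsir, which encodes the inhibitory receptor VISTA, from 47.8 to 153 CPM (1.64), and Ptpn6 from 44.6 to 96.1 CPM (1.11). Grap2, an adaptor that binds CD28, fell from 88.7 to 10.9 CPM (-3.06), Cd200r1, the receptor of CD200, from 2.65 to 0.561 CPM (-2.20), and Cd96 from 19.8 to 5.10 CPM (-1.94).

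In Foxp3 cells 19 of the 36 were higher and 5 lower than in activated cells, beside 31.2% and 25.7% over all genes. The largest rises were in ligands and the CD200 receptor: Cd80 stood at 15.6 CPM and 0.303 CPM in the 2 classes (log2 5.35), Cd86 at 19.7 and 2.43 CPM (3.21), and Cd200r1 at 12.9 and 0.561 CPM (4.48). The mean was at most 0.490 CPM for Cd80 and 3.91 CPM for Cd200r1 in the other classes of this fit. These 2 genes, counted in the 19, passed the low-count filter only through the Foxp3 sums, so their rises are descriptions. Cd86 too reached the 10 CPM asked of a named gene only in Foxp3 cells. Cblb, a ubiquitin ligase that raises the need for CD28, was lower at 180 against 405 CPM (-1.02), as were Vsir (-0.89) and Ptpn6 (-0.83). Cd80 and Cd86 are also genes of antigen-presenting cells, and the B cell markers summed to 2.05 plain CPM in Foxp3 cells and 0.229 plain CPM in activated cells. Whether other cells contributed to the 41 Cd80 UMIs of the Foxp3 cells was not tested.

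In Nrn1 cells 7 of 36 were higher than in activated cells (6.83% over all genes), with Cd200r1 (log2 2.73), Cd96 (1.83) and Ubash3b (1.11) largest, and 3 were lower (3.80% over all genes): Trat1 (-0.71), Cd274 (-0.42) and Cblb (-0.30). In S100a6 cells 15 of 34 were higher than in activated cells (21.9% over all genes), led by Lgals3 (7.66), Cd200r1 (3.83) and Cd96 (3.21), and 6 were lower (19.2% over all genes), led by Trat1 (-1.26), Cd274 (-0.84) and Vsir (-0.69). Against resting cells 9 of 34 were higher (7.10% over all genes), led by Lgals3 (6.18), Cd226 (1.83) and Pdcd1lg2 (1.78), and 3 were lower (5.85% over all genes): Trat1 (-2.10), Pik3cd (-0.70) and Cblb (-0.48). Cd200r1 and Cd96 were thus called higher than in activated cells in both of these small classes, Cd200r1 on 10 UMIs in Nrn1 cells and 7 in S100a6 cells. Cd96 stood at 37.9, 5.85, 25.4 and 3.28 CPM in Nrn1 cells and at 6.05, 4.83, 5.23 and 4.29 CPM in activated cells, so that the male library labelled wild type was lower in Nrn1 cells. Galectin 3, the product of Lgals3, is a ligand of LAG-3 and is also common in myeloid cells. Mean Lgals3 was 82.6 CPM in S100a6 cells and at most 1.56 CPM in the other classes. It passed the low-count filter only through the S100a6 sums, so its rises are descriptions.

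The nearest genes of the remaining members over the 20 sums were Trbc2, Mettl9 and Rap2b for Cd28 (r = 0.88, 0.84 and 0.82), Ier2, Zfp36l1 and Pdcd1lg2 for Icos (0.90, 0.88 and 0.88), Actr3 and A430093F15Rik for Cd5 (0.95 and 0.94) and Phactr2, Fxr2 and Ptprcap for Lag3 (0.92, 0.84 and 0.84). Trbc2 encodes a constant part of the T cell receptor. Tigit, with 123 UMIs in all CD4 T cells, was too sparse for this measure.

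Between the genotype labels, Ctla4 and Cd83 were higher in the sums of all CD4 T cells of the libraries labelled knockout. In this contrast 2.14% of 12511 genes tested were called (1.58% higher, 0.560% lower), and 2 of the 10 members. The median of the set was 0.28, beside 0.00 over all genes. With 2 libraries per label the calls lean on a spread shared across genes, and neither was called by DESeq2, without a filter on low counts or without the sex term. The label fits below that leave out a library also had no sex term, and such sex fits had no label term. A call lost there cannot be set to the missing library alone. The libraries labelled knockout also had lower medians of UMIs per cell within each sex.

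Ctla4 stood at 41.0, 30.4, 34.0 and 20.2 CPM, a log2 difference of 0.60 ± 0.09 (adjusted p = 2.79e-05, edgeR), and was higher under the knockout label in both sexes (0.44 in females, 0.75 in males). The share of Foxp3 cells was higher under that label in both sexes too, and Foxp3 cells had the highest Ctla4 level of the 5 classes. Without cells holding any Foxp3 UMI the difference was 0.27 and not called (adjusted p = 0.259, edgeR). It was also not called without the female library labelled knockout (0.45, adjusted p = 0.474, edgeR), the male labelled knockout (0.72, adjusted p = 0.0588, edgeR) or the male labelled wild type (0.30, adjusted p = 0.379, edgeR). Neither within resting cells (0.29) nor within activated cells (0.26) was Ctla4 called. The free RNA of near-empty droplets, given above, was likewise higher in Ctla4 under the knockout label in both sexes, and the parts of free RNA and of the share of Foxp3 cells in the difference cannot be told apart.

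Cd83 stood at 68.7, 53.4, 63.5 and 44.2 CPM (log2 0.45 ± 0.09, adjusted p = 0.000781, edgeR), higher under the knockout label in females (0.37) and males (0.52). Leaving out Foxp3 cells did not change the value (0.45, still called). Without the female labelled knockout (0.38, adjusted p = 0.332, edgeR), the male labelled knockout (0.50, adjusted p = 0.101, edgeR) or the male labelled wild type library (0.31, adjusted p = 0.201, edgeR) it was not called, nor in cells thinned to equal depth (0.45, adjusted p = 0.056, edgeR). Near-empty droplets held Cd83 at 130, 63.6, 113 and 66.0 plain CPM, again higher under the knockout label, and the part of free RNA in the difference was not tested.

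**Figure D4:**
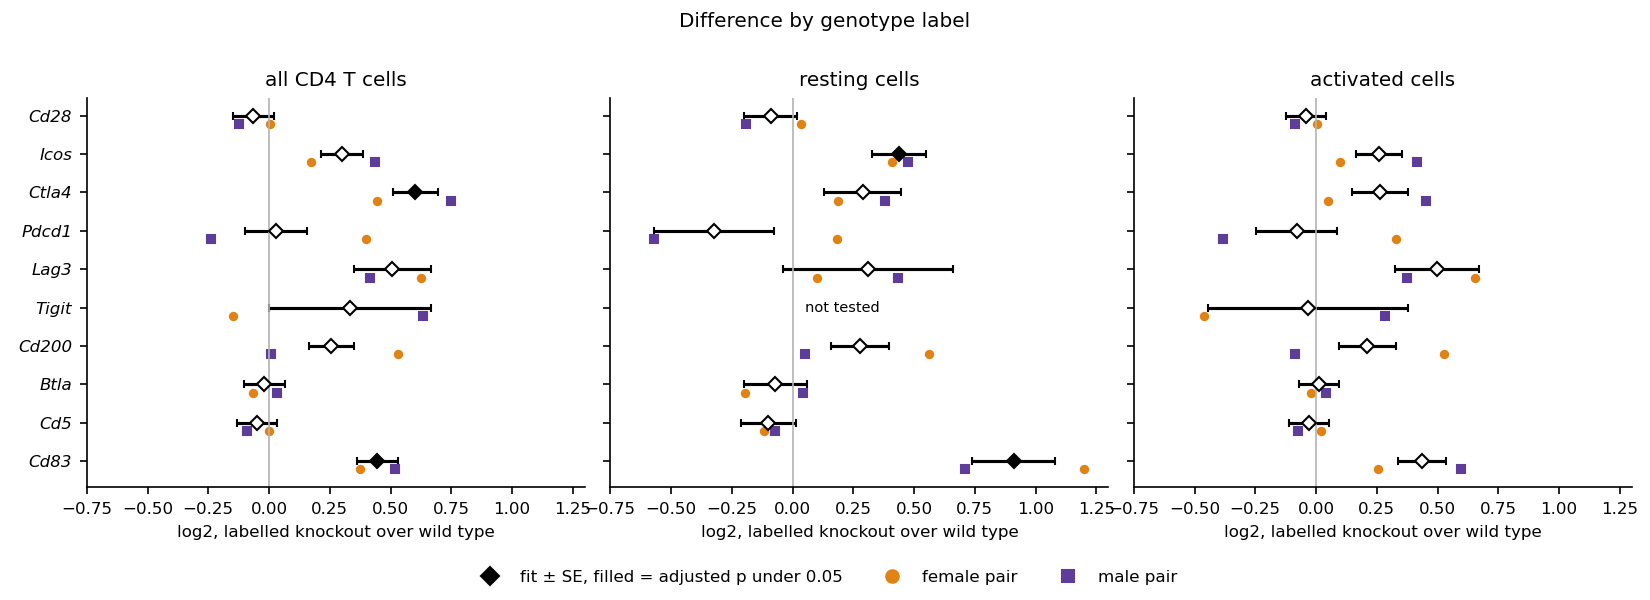
Log2 difference, labelled knockout over labelled wild type (horizontal axis), for each gene (vertical axis) in all CD4 T cells, resting cells and activated cells. Diamonds are fitted values, bars are standard errors, and filled diamonds passed an adjusted p under 0.05. Circles are the female pair of libraries and squares the male pair. Tigit was not tested in resting cells. In all CD4 T cells Ctla4 and Cd83 were higher under the knockout label in both sexes. The fitted values of Cd28, Btla and Cd5 there were -0.07, -0.02 and -0.05.

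Within classes the label differences were smaller in number. In resting cells 0.902% of genes were called (0.617% higher), and Cd83 (0.91 ± 0.17, adjusted p = 3.37e-05, edgeR) and Icos (0.44 ± 0.11, adjusted p = 0.0128, edgeR) were higher under the knockout label, out of 9 members tested. Resting Cd83 was at 25.1, 11.1, 17.9 and 10.9 CPM and in 2.45% of thinned resting cells, not above its share in erythroid-marked cells. The resting share of Icos, given above, was not above its upper end in those cells either. Near-empty droplets held Icos at 227, 198, 173 and 129 plain CPM, higher under the knockout label in both sexes. The part of free RNA in these differences was not tested. Resting Icos lost its call without the female labelled knockout (0.29, adjusted p = 1.00), the male labelled knockout (0.57, adjusted p = 0.139) or the male labelled wild type library (0.26, adjusted p = 0.427), and Cd83 without the female labelled knockout (0.71, adjusted p = 0.772), all in edgeR. Neither was called by DESeq2, in thinned cells or without the sex term, and Icos was not called at a minimum of 3000 UMIs per cell. In activated cells 0.574% of genes were called (0.400% higher) and none of the 10. Cd83 was nearest there (0.43 ± 0.10, adjusted p = 0.0909, edgeR), and it was called once predicted doublets were removed (adjusted p = 0.0132). No gene passed the test of a label difference that itself differed between resting and activated cells (0.00% of 11275 in edgeR, 635 at an unadjusted p under 0.05, and 1 in DESeq2), so no member is shown to respond to the label in 1 class and not the other.

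Shares of cells with a UMI differed from the sums in which genes stood apart. After thinning, the libraries of the labels did not overlap for 4 of the 10 genes, all higher under the knockout label: Icos (35.9% and 30.7% of CD4 T cells on average), Cd83 (9.20% and 6.46%), Pdcd1 (1.96% and 1.60%) and Lag3 (1.10% and 0.635%). Each gave an exact two-sided permutation p of 0.333, the smallest that 2 libraries against 2 can give. Over all genes seen in at least 0.1% of cells 38.8% did not overlap (29.7% higher, 9.10% lower), so 4 of 10 is near the background. Ctla4, called in the sums, overlapped (5.68% and 4.23%). At full depth, where the libraries labelled knockout had fewer UMIs per cell within each sex, 72.5% of all genes did not overlap (1.46% higher, 71.1% lower). Of the 10 members 6 did not, which is near that background, and 5 of these were lower under the knockout label: Cd28 (46.8% and 56.2%), Btla (29.9% and 38.2%), Cd5 (48.9% and 58.0%), Cd200 (28.5% and 30.6%) and Pdcd1 (4.52% and 6.20%). Pdcd1 thus turned in direction with depth, while Cd83 was higher at both (17.6% and 15.8% at full depth).

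Of the pathway genes, Trat1 (0.37), which encodes an adaptor of the antigen receptor, was higher and Ubash3b (-0.50), a phosphatase, lower under the knockout label in all CD4 T cells, out of 42 tested. Over all genes 1.58% were called higher and 0.560% lower there. Trat1 was also higher in resting cells (0.45) and lower in males than in females (-0.48). Between the sexes 1.64% of genes were called. Ctla4 was the 1 member among them, lower in males by 0.42 on the log2 scale (-0.42 ± 0.09, adjusted p = 0.0067, edgeR), at 41.0 CPM in females and 34.0 CPM in males labelled knockout, and at 30.4 and 20.2 CPM in those labelled wild type. The call was lost without the female library labelled knockout (-0.17), the female labelled wild type (-0.60) or the male labelled wild type (-0.09), and without a term for the label (-0.41). The other 9 members differed between the sexes by -0.31 to 0.08 and were not called.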

How the data were processed

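The authors deposited raw UMI counts per gene and barcode as 10x matrices of 4 libraries, with all barcodes. Per the submitters' processing notes they came from Cell Ranger 6.0.2 on mm10, whereas the file headers name Cell Ranger 4. Use of strand is not given in the sources used here. The 10 genes and the pathway and marker lists were chosen with earlier results of these data known. The matrices held 38334976, 28841161, 53494911 and 55850754 UMIs.

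Cells were kept and thinned as the report states (numpy 2.4.6, pandas 2.3.3). The score was log2((A + 1)/(R + 1)) of thinned UMIs of the activation (A) and resting (R) genes, cut at 0.431 by Otsu's method. The widened S100a6 gate, its contrast with resting cells and the omission of Foxp3 cells were chosen after seeing the data. S100a6 cells of the widened gate were taken out of resting and activated sums only in their own fit. UMIs were summed per library and class, sums under 20 cells (10 for S100a6) being dropped. Sums were tested with edgeR 4.0.16 (R 4.3.3, limma 3.58.1; quasi-likelihood, TMM, filterByExpr, Benjamini-Hochberg over all genes, called under 0.05), with library as block between classes and with sex and label as terms between labels. The test scripts were tested on simulated data. Alternatives were DESeq2 1.42.0, no filter, 3000 UMIs per cell, other lineages kept, predicted doublets removed (scanpy 1.11.5, 0.8% per 1000 cells; none were removed otherwise), thinned sums, stricter gates, cells above the cut, and each library left out. Intervals and limits from counts are exact at 95% and cover counting error only. All 10 genes were named, with, per contrast, up to 3 called pathway genes each way at 10 CPM or more in a class, and the 3 most correlated genes of each member. Gene positions came from GENCODE on GRCm38.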

Additional observations from a re-analysis of the deposited data

Results flagged for a closer look

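Among 59 gene-by-class levels over the 4 libraries, 4 had 1 library far from the other 3 by Dixon's criterion, which chance meets in about 1 of 20. Cd200 in all CD4 T cells was 141 CPM in the female library labelled knockout, with the next at 103 and the lowest at 98.7. Ctla4 in Foxp3 cells was 181 CPM in the male library labelled wild type, with the next at 327 and the highest at 352. Icos in Nrn1 cells was 273 CPM in the same library, against 311 to 313 in the others. Ctla4 in S100a6 cells was 70.7 CPM in the female library labelled knockout, with the next at 34.9 and the lowest at 27.9.

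For 5 genes the label difference in all CD4 T cells had opposite signs in females and males, with 1 library per label in each sex, and these differences were not tested. On the log2 scale Cd28 was 0.0052 in females and -0.12 in males, Pdcd1 0.40 and -0.24, Tigit -0.15 and 0.63, Btla -0.065 and 0.03, and Cd5 0.0013 and -0.09. Those of Cd28, Btla and Cd5 are small in both sexes.

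Cells set aside for markers of other lineages exceeded the mean of every class for 3 genes among values on more than 3 UMIs, all in plain CPM. Cd83 stood at 431 plain CPM in the 23 cells with B cell markers (95 UMIs), against 270 in Foxp3 cells, the highest class. Icos stood at 427 plain CPM in the 26 cells with NK markers (67 UMIs), against 365 in Foxp3 cells. Btla stood at 104 plain CPM in the 45 cells with CD8 markers (40 UMIs), against 101 in Nrn1 cells. No replicate test was made on these cells.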

How the results depend on the processing

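No paired analysis was possible because the labels number no replicates, other than library as a block between classes and sex as a term between labels. The first S100a6 gate gave no value. Of 1070 alternative values of single genes 81 changed sign, and 1 of these passed the threshold (Btla in S100a6 over activated cells above the cut, 0.82).

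Leaving out each library in turn, the members called ranged from 9 to 9 (activated over resting), 7 to 7 (Foxp3), 3 to 6 (Nrn1), 2 to 3 (S100a6 over activated), 4 to 6 (S100a6 over resting), 0 to 3 (label), 0 to 2 (label, activated), 0 to 4 (label, resting), 0 to 0 (label by activation), 0 to 1 (sex) and 6 to 8 (shares of cells, beside 4 with all libraries; 61.0% to 79.6% of all genes did not overlap without 1 library). The genes called ranged from 6980 to 8052, 4334 to 5666, 327 to 1658, 2514 to 2992, 690 to 974, 32 to 248, 10 to 268, 25 to 370, 1 to 121 and 7 to 152 in the same order; the label and sex fits then had no second term.

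Against 1018 genes called in Nrn1 cells, 3220 were called without a filter, 1590 with other lineages kept, 417 in thinned sums (with 3 members) and 635 above the cut. S100a6 over activated cells gave 6 members without a filter, a count that is not set against all genes here. The same contrast gave 1807 genes in thinned sums and 578 above the cut, beside 3394. S100a6 over resting cells gave 1739 genes with other lineages kept and 550 in thinned sums, beside 1069.

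The label in all cells (268 genes) gave 0 members and 34 genes in DESeq2, 0 and 45 without a filter, 0 and 11 without the sex term, 1 member and 47 genes in thinned sums, 155 genes with other lineages kept, and 1 member without Foxp3 cells. In activated cells (66 genes) it gave 19 genes in DESeq2, 7 without a filter, 13 at 3000 UMIs, 124 and 1 member without doublets, 10 in thinned sums and 6 without the sex term. In resting cells (98 genes) it gave 0 members and 7 genes in DESeq2, 1 and 62 at 3000 UMIs, 0 and 43 in thinned sums, 0 and 10 without the sex term, and 250 genes with other lineages kept. Label by activation gave 33 genes without a filter and 1 in each of DESeq2, thinned sums and other lineages kept. Sex (205 genes) gave 0 members in 5 alternatives, with 22 genes in DESeq2, 11 without a filter, 54 in thinned sums and 8 without the label term.

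Of the 81 sign changes, 49 were in label and sex values of members not named there, none of them called. The other 32 are given here and in the next paragraph, and of these only Btla above the cut was called. Without a filter Icos in Foxp3 cells was -0.049, Btla in Nrn1 cells -0.11, Cd83 in Nrn1 cells -0.24 and Icos in S100a6 cells -0.15. Cd83 in Nrn1 cells was also -0.042 in DESeq2, -0.14 with other lineages kept and -0.42 with stricter gates. Above the cut Cd5 in Foxp3 cells was 0.21 and Cd83 in S100a6 cells 0.14. In thinned sums Cd5 in S100a6 cells was 0.10 against activated cells, and Cd28 was 0.41 against resting cells. Icos in S100a6 cells was -0.10 without doublets. Ctla4 by label and activation was 0.033 at 3000 UMIs and 0.0043 without doublets. The cause was not tested. Having no filter lowered the median member by 0.22 in Foxp3, 0.27 in Nrn1, 0.16 in S100a6 over activated and 0.12 in S100a6 over resting cells, and raised it by 0.19 in activated over resting cells.

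Leaving out each library in turn, the named values that took both signs ranged on the log2 scale as follows. Tigit in activated over resting cells lay between -0.0079 and 0.40, Icos in Foxp3 cells between -0.0019 and 0.22, and Cd83 in Nrn1 cells between -0.14 and 0.15. In S100a6 over activated cells Icos lay between -0.22 and 0.15, Btla between -0.59 and 0.17, and Cd200 between -0.17 and 0.81. By label, Ctla4 lay between -0.16 and 0.67 in activated and between -0.12 and 0.71 in resting cells, and Lag3 between -0.030 and 0.57 in resting cells. By label and activation, Ctla4 lay between -0.14 and 0.075 and Lag3 between -0.0012 and 0.49. By sex, Lag3 lay between -0.58 and 0.043, Cd83 between -0.47 and 0.048, and Icos between -0.42 and 0.014.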

Other observations

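Other values came from cells that were set aside for markers of other lineages and enter no comparison. Pdcd1, the gene of PD-1, stood at 32.2 plain CPM in the 132 cells with gamma-delta T cell markers (33 UMIs) and at 21.1 plain CPM in the 189 cells with myeloid markers (57 UMIs). Tigit stood at 12.7 plain CPM in the 26 cells with NK markers, on 2 UMIs, beside a highest class mean of 7.70 in S100a6 cells on 6 UMIs, and was not detected in the 45 cells with CD8 markers. No replicate test was made on these values.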
